A study of Mus musculus with 6 samples.

Results

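The genes described here act in DNA repair, in the Fanconi anaemia pathway and in the DNA damage checkpoint. They were listed by function as 40 gene symbols, and 38 of the 40 were measured, among 18193 genes in all. A gene was represented by the probe set with the highest mean over the 6 samples, among the probe sets that the platform annotation gives to exactly 1 symbol. Xrcc2, a homologous recombination gene, and Rbbp8, a starter of end resection, are not analysed here.

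Injured and control tracheal mesenchyme of adult male C57Bl/6 mice was profiled on Affymetrix mouse genome arrays, with 3 samples at 48 h post injury (48 hpi) and 3 control samples from uninjured mice. Injury was inhalation of 500 ppm sulfur dioxide (SO2) for 4 h, which strips luminal cells from the airway epithelium. Each sample pooled the tissue of 4 mice, so that the errors below are between pools and not between single animals. The epithelium was peeled off after 23 min in dispase and all that remained was ground without a cell sort, so the RNA could come from fibroblasts, cartilage, smooth muscle, vessels, resident and infiltrating leukocytes and any epithelium left behind. All values are expression values on the log2 scale from robust multi-array analysis (RMA), which scales the arrays to 1 common distribution. A difference of 1 is therefore a 2-fold change relative to the other genes of the array.

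In homologous recombination the ends of a DNA break are trimmed to single strands, which with the help of Brca1 and Brca2 pair with the sister chromatid and copy its sequence to restore the break. Fanconi anaemia proteins release crosslinked strands at stalled replication forks and hand the break that results to the same machinery. The kinases Atr and Atm sense exposed single strands and breaks, and hold the cell cycle through Chek1 and Chek2 while repair goes on. Several of these genes are textbook targets of E2F factors, which drive transcription around S phase.

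Promoters of 5 of the genes are shown first, since E2F sites are the best known element of this gene set: the 3 with the largest rises at 48 hpi among genes with an entry (Clspn, Brca1 and Chek1, since Exo1 has none) and the 2 with the smallest changes (Atm and Xrcc3). Each runs from 250 bases before to 50 bases after the transcription start, 5′ to 3′ on the gene's own strand, from RefSeq on GRCm38.p6. The windows are chr4:126556730-126557029 on the plus strand (Clspn), chr11:101551906-101552205 on the minus strand (Brca1), chr9:36726609-36726908 on the minus strand (Chek1), chr9:53536622-53536921 on the minus strand (Atm) and chr12:111813830-111814129 on the minus strand (Xrcc3). Capitals mark every match, on either strand, to an E2F word (TTTCCCGC, TTTGGCGC, TTTCGCGC or TTTGCCGC), to the NF-Y word CCAAT or to the cell cycle homology word TTTGAA.
Clspn: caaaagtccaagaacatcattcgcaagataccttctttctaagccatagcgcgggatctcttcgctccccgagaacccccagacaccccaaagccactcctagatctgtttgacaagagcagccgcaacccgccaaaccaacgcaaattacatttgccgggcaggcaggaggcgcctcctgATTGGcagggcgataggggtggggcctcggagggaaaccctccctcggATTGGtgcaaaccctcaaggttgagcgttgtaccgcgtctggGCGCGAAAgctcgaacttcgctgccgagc
Brca1: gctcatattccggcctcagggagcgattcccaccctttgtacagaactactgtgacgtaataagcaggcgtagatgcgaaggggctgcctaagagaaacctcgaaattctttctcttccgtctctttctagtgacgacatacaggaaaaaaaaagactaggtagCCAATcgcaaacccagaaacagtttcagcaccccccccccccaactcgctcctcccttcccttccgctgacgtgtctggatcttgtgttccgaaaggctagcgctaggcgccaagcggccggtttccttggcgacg
Chek1: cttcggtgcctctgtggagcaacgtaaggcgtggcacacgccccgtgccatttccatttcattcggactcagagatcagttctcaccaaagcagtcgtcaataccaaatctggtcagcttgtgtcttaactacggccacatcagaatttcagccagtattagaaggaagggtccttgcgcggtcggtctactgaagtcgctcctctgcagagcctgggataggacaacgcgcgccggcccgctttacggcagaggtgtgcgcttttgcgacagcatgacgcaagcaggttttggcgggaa
Atm: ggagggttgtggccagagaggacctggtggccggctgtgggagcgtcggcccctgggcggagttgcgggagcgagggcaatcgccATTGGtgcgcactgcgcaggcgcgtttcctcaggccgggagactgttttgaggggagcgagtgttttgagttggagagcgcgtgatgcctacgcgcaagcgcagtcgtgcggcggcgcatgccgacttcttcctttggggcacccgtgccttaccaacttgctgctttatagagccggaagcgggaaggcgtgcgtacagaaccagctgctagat
Xrcc3: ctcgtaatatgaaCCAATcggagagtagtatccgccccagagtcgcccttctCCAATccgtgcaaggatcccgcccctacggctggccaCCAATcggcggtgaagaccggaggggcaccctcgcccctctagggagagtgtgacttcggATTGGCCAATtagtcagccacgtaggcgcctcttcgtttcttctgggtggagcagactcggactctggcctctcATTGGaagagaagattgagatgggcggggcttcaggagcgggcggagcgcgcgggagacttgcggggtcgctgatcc
Clspn held 1 E2F word, starting at base 22 after the start site, and 2 NF-Y words at -69 and -21. Brca1 held 1 NF-Y word at -86, Atm 1 at -165 and Xrcc3 6 between -237 and -27, and none of these 3 windows held an E2F word. Chek1 held no match to any of the words, which says only that these letters are not in the window. Its window ends in ttttggcgggaa, in which TTTGGCGG differs from the E2F word TTTGGCGC in the last base only.

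Over the whole set, the RefSeq table held a promoter for 32 of the 38 measured genes (34 promoters, since Rad51c and Rad54l have 2 starts). An E2F word was in 10 of the 34 promoters (29.4%), against 744 of the 32851 promoters of the table (2.27%). By gene these were Clspn, Topbp1 and Msh6, which rose at 48 hpi, and Brca2, Rad51c, Bard1, Fancg, Xrcc6 and Chek2, which did not pass the test. E2F words were thus in the promoters of 3 of the 10 genes that rose and have an entry, and of 6 of the 22 genes that did not pass the test. The NF-Y word was in 20 of the 34 promoters (58.8%), against 37.4% of the table, and the cell cycle homology word in 1 (2.94%), against 17.9% of the table. The promoters of the table were not matched to these in base composition, which also sets how often a word occurs. In these promoters 0 matches of 1 motif overlapped a match of another. A match is a stretch of letters and was not tested as a binding site. Near matches, and words that the window edge may cut, as at the end of the Chek1 window, are not in these counts.

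At 48 hpi, 11 of the 38 measured genes rose and 0 fell (limma, adjusted p under 0.05). The risers were Clspn, Chek1 and Topbp1 of the checkpoint, Brca1 and Rad54l of homologous recombination, Exo1, Mre11a and Brip1 of end resection and unwinding, Fanca of the Fanconi core complex, and the base excision and mismatch repair genes Ung and Msh6. Their log2 fold changes ran between 0.47 and 2.18, and 6 of them were over 2-fold. Among all 18193 genes 904 rose (4.97%) and 226 fell (1.24%), against 28.9% that rose among the 38. At an unadjusted p under 0.05 the same limma fit had 20 of the 38 higher and 1 lower, against 14.6% higher and 9.29% lower over all genes. The median log2 fold change of the 38 was 0.27, against -0.01 over all genes, and turned to -0.40 with arrays centred on the Gapdh and β-actin control probe sets, a scaling that lowers every log2 fold change by 0.67.

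With the replicate number as a block, 16 of the 38 rose and 1 fell, beside 8.77% higher and 4.64% lower over all genes. The genes added were Fancb, Brca2, Fanci, Chek2 and Fancl, and the fall was Blm. The 3 values at 48 hpi lay above all 3 controls for 20 of the 38 genes (52.6%), against 17.2% of all genes. All 3 lay below the controls for 2 genes (Blm and Wrn), against 13.1% of all genes. Among the 11 genes that rose, the highest of the 6 values was 48 hpi replicate 3 for 10, and the lowest of the injured samples was 48 hpi replicate 2 for 9. The count of rises was 4 without 48 hpi replicate 3 or control replicate 3, 5 without 48 hpi replicate 1 or control replicate 2, 7 without control replicate 1 and 9 without 48 hpi replicate 2. The share of all genes that rose was smaller in these fits too, at 1.92% to 3.56%, against 4.97% with all 6 samples. Clspn, Chek1 and Exo1 passed in all 6 of these fits, Brca1 in 5 and Topbp1 in 5, Mre11a in 2, Rad54l, Fanca, Ung and Msh6 in 1 each, and Brip1 in 0.

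**Figure D1:**
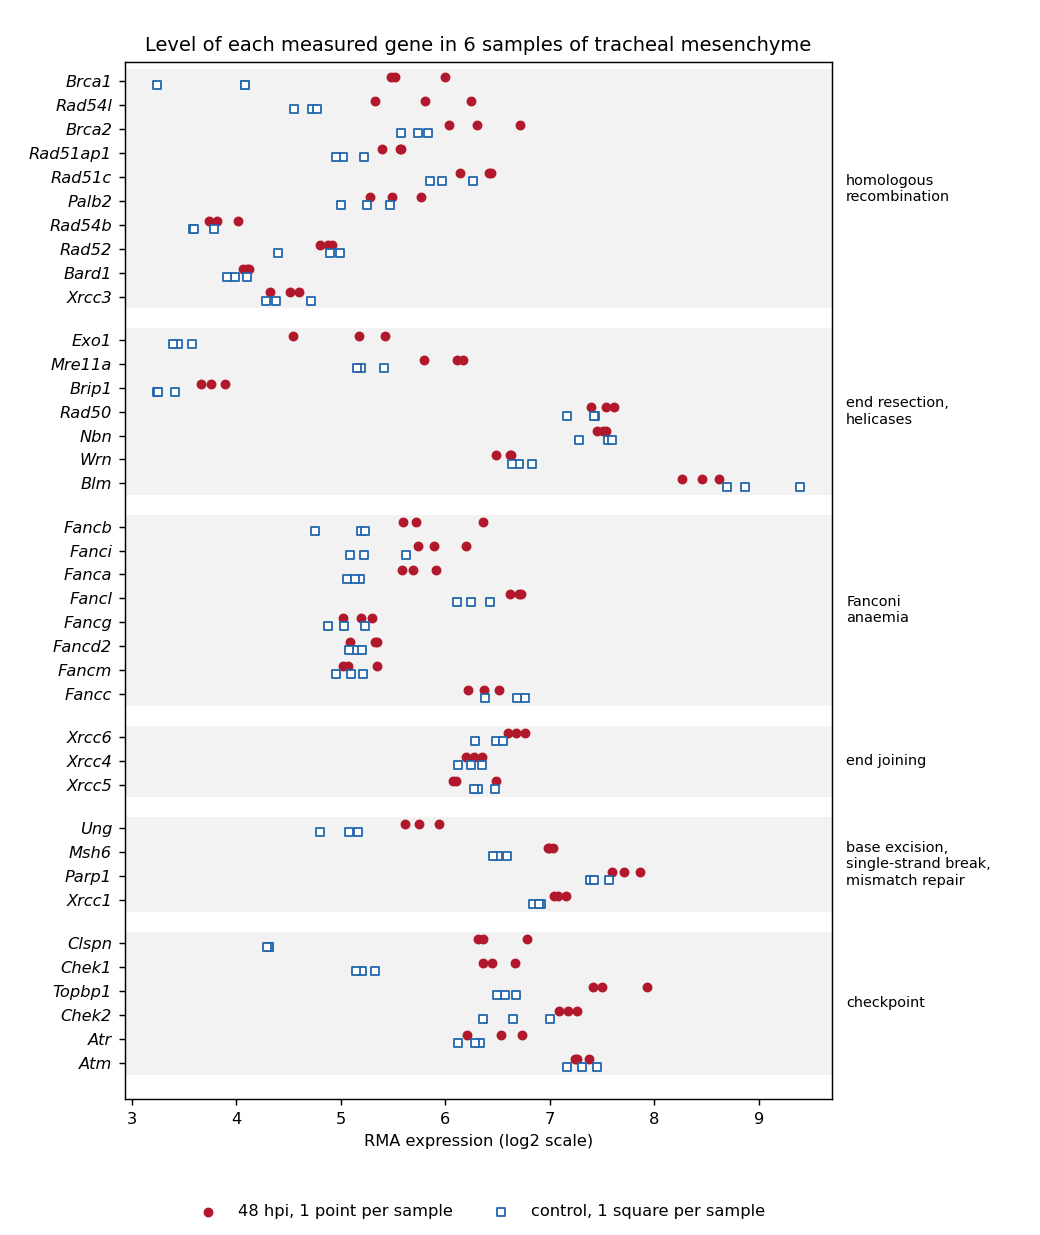
RMA expression on the log2 scale (horizontal axis) of the 38 measured genes in role groups (vertical axis), with 1 filled point per 48 hpi sample and 1 open square per control sample. For 20 genes all 3 points lie right of all 3 squares, and for Blm and Wrn all 3 lie left of them.

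The checkpoint genes included the largest change of the set. Of 6 measured genes 3 rose and 0 fell (blocked by replicate number, 4 and 0), with a median log2 fold change of 0.77, which was the one role group median to stay above 0 with arrays centred on Gapdh and β-actin. Beside these counts, 4.97% of all genes rose and 1.24% fell (8.77% and 4.64% with the block). Clspn (probe set 1456280_at), the adaptor through which Atr activates Chek1, read 6.36, 6.31 and 6.79 at 48 hpi, against 4.31, 4.31 and 4.29 in controls. The groups were far apart and the controls were nearly identical. The log2 fold change was 2.18 ± 0.13 (SE, n = 3 each; limma adjusted p = 0.000530), a 4.53-fold rise. Chek1 (1449708_s_at), the effector kinase of Atr, read 6.44, 6.36 and 6.67 at 48 hpi, against 5.33, 5.20 and 5.14 in controls, a log2 fold change of 1.26 ± 0.11 (adjusted p = 0.00169). Topbp1 (1452241_at), which switches on Atr at stalled forks, read 7.41, 7.49 and 7.93 at 48 hpi, against 6.57, 6.68 and 6.50 in controls, and rose by 1.03 ± 0.15 (adjusted p = 0.0129), or 0.0590 without control replicate 3. For both genes every injured sample was above every control.

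The kinases at the head of the pathway did not pass the test. Atm, the sensor of DNA breaks and also the checkpoint gene with the highest mean, read 7.24, 7.37 and 7.26 at 48 hpi, against 7.16, 7.45 and 7.31 in controls. The groups overlapped fully, and the 95% interval of the log2 fold change of -0.02 ran between -0.26 and 0.22. Atr, the sensor of single-stranded DNA, had a log2 fold change of 0.24 ± 0.15 (adjusted p = 0.422). Chek2, the effector of Atm, read 7.18, 7.26 and 7.09 at 48 hpi, against 7.00, 6.65 and 6.36 in controls. The groups did not overlap, but the controls were spread, and the log2 fold change of 0.50 ± 0.16 passed with the replicate block (adjusted p = 0.0457) and not without it (0.144). Within the checkpoint, the arm of Atr thus held the 3 rises (Clspn, Chek1 and Topbp1), whereas the difference between the arms was not tested.

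Of 10 measured genes of homologous recombination 2 rose and 0 fell (3 and 0 with the block), beside 4.97% higher over all genes (8.77% with the block). The median log2 fold change of the group was 0.29. Brca1 (1424629_at), a ubiquitin ligase that commits breaks to recombination, read 5.52, 5.48 and 6.00 at 48 hpi, against 3.24, 4.08 and 4.09 in controls. Control replicate 1 was the lowest by far, and the injured samples were higher than the controls in all 3 numbered pairs. The log2 fold change was 1.86 ± 0.25 (limma adjusted p = 0.0112), a 3.63-fold rise, with adjusted p = 0.0537 when 48 hpi replicate 3 was left out. Rad54l (1450862_at), a motor protein that acts in strand invasion of the sister chromatid, read 5.80, 5.32 and 6.25 at 48 hpi, against 4.72, 4.55 and 4.77 in controls. It rose by 1.11 ± 0.22 (adjusted p = 0.0379), passed without 48 hpi replicate 2 (0.0133) and lost its call when any other sample was left out, with adjusted p up to 0.117.

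Brca2, a mediator of strand invasion, read 6.03, 6.31 and 6.71 at 48 hpi, against 5.74, 5.57 and 5.83 in controls. Its log2 fold change of 0.64 ± 0.17 passed with the replicate block (adjusted p = 0.0253) and not without it (0.100). Rad51ap1, which stimulates strand pairing, had 0.45 ± 0.11 on the probe set used (adjusted p = 0.0660, and just over the threshold with the block). The other members of this group had log2 fold changes between 0.02 and 0.31 and passed in neither fit. Rad51c, a recombination gene that works with Xrcc3 and the group's highest mean, read 6.14, 6.44 and 6.42 at 48 hpi, against 5.97, 5.85 and 6.26 in controls, and the groups overlapped (0.31 ± 0.14). Palb2, which joins Brca1 to Brca2, had 0.27, the motor protein Rad54b 0.20, the annealing protein Rad52 0.10 and Bard1, the ligase partner of Brca1, 0.10. Xrcc3, the partner of Rad51c, was the least changed, with 4.60, 4.32 and 4.52 at 48 hpi, against 4.38, 4.29 and 4.71 in controls (0.02, 95% interval -0.30 to 0.34).

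End resection and unwinding held the third largest rise of the set, that of Exo1, and its lowest log2 fold change, that of Blm. Of 7 measured genes 3 rose and 0 fell, beside 4.97% higher and 1.24% lower over all genes. There was 1 fall with the block (1 lower at an unadjusted p under 0.05 in the main fit), beside 4.64% lower over all genes with the block. The median log2 fold change of the group was 0.18. Exo1 (1418026_at), an exonuclease of end resection and mismatch repair, read 5.17, 4.55 and 5.42 at 48 hpi, against 3.44, 3.39 and 3.58 in controls. The injured samples were spread by more than the controls, but the lowest was still well above them. The rise was 1.58 ± 0.21 on the log2 scale (limma adjusted p = 0.0105). Mre11a (1416748_a_at), the nuclease that begins resection, read 6.16, 5.80 and 6.11 at 48 hpi, against 5.41, 5.20 and 5.16 in controls, and rose by 0.77 ± 0.13 (adjusted p = 0.0218). Its partners in the same complex did not follow it past the threshold. Rad50, the clamp of the complex, had 0.18 ± 0.11, and Nbn, the subunit that recruits Atm, read 7.45, 7.54 and 7.51 at 48 hpi, against 7.56, 7.59 and 7.27 in controls (0.03 ± 0.11).

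Brip1 (1458427_at), a helicase that binds Brca1, read 3.76, 3.66 and 3.89 at 48 hpi, against 3.24, 3.25 and 3.42 in controls, and rose by 0.47 ± 0.10 (limma adjusted p = 0.0468). The groups did not overlap, but the call was lost when any 1 sample was left out (adjusted p 0.0739 to 0.171), and the mean of the probe set lay under 3.67, the 20th percentile of all probe set means. Exo1 and Brip1 were under that level in every control. Blm (1448953_at), a RecQ helicase that dissolves joined chromatids, went the other way, with 8.45, 8.27 and 8.62 at 48 hpi, against 8.87, 8.70 and 9.39 in controls. Each injured sample was under the lowest control. The log2 fold change of -0.54 ± 0.19 did not pass without the block (adjusted p = 0.178) and passed with it (0.0232), and the gene had 1 probe set. Wrn, another RecQ helicase, had -0.15 ± 0.09 (adjusted p = 0.442), also with no overlap between the groups.

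Of 8 measured Fanconi anaemia genes 1 rose and 0 fell, whereas 4 rose and 0 fell with the block. The shares higher over all genes were 4.97% and 8.77%. The median of the group was 0.27. Fanca (1418856_a_at), a scaffold of the core complex, read 5.69, 5.58 and 5.91 at 48 hpi, against 5.19, 5.06 and 5.14 in controls, and rose by 0.60 ± 0.11 (limma adjusted p = 0.0280). The call held without 48 hpi replicate 2 (0.0412) and was lost when any other sample was left out, with adjusted p up to 0.0949. Fancb, also of the core complex, had the largest difference of the group, with 5.60, 5.72 and 6.36 at 48 hpi, against 4.75, 5.20 and 5.23 in controls. The groups were apart, but replicate 3 was the highest in each of them, and 0.83 ± 0.22 passed with the block (adjusted p = 0.0109) and not without it (0.0938). Fanci, which the pathway ubiquitinates together with Fancd2, had 0.63 ± 0.17 (0.102, and 0.0345 with the block). Fancl, the ubiquitin ligase of the core complex, had 0.42 ± 0.10 (0.0748, and 0.0409 with the block).

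The other Fanconi genes passed in neither fit. Fancd2, the partner of Fanci, had a log2 fold change of 0.11 ± 0.10 and the core complex gene Fancg 0.13 ± 0.12. Fancm, the motor protein that brings the complex to DNA, was the least changed, with 5.02, 5.07 and 5.35 at 48 hpi, against 4.96, 5.10 and 5.21 in controls (0.06 ± 0.12). Fancc, the core complex gene with the highest mean of the group, read 6.51, 6.22 and 6.37 at 48 hpi, against 6.38, 6.76 and 6.69 in controls. Its groups overlapped, at -0.24 ± 0.13 (adjusted p = 0.370).

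No gene of non-homologous end joining passed the test. Of the 3 measured genes 0 rose and 0 fell with limma in either fit, with 1 higher and 0 lower at an unadjusted p under 0.05, and the median was 0.03. Over all genes 4.97% rose (8.77% with the block), so 0 of 3 genes is near that share. Xrcc6, a Ku subunit that caps broken ends, had the largest difference and the highest mean, with 6.76, 6.68 and 6.60 at 48 hpi, against 6.48, 6.55 and 6.29 in controls. The groups were just apart (0.24 ± 0.10, adjusted p = 0.257). Xrcc4, the scaffold of the ligase, read 6.35, 6.28 and 6.20 at 48 hpi, against 6.13, 6.35 and 6.25 in controls, and the groups overlapped (0.03 ± 0.09). Xrcc5, the other Ku subunit, had -0.14 ± 0.13.

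For base excision, single-strand break and mismatch repair, 2 of 4 measured genes rose and 0 fell, in both fits, and all 4 had their 48 hpi values above every control. The shares over all genes were 4.97% higher (8.77% with the block) and 17.2% above every control. The median of the 4 genes was 0.38. Ung (1425753_a_at), which cuts uracil out of DNA, read 5.75, 5.62 and 5.94 at 48 hpi, against 5.07, 4.80 and 5.16 in controls, and rose by 0.76 ± 0.13 (limma adjusted p = 0.0250). Msh6 (1416915_at), which recognizes mispaired bases, read 6.98, 6.99 and 7.03 at 48 hpi, against 6.59, 6.50 and 6.46 in controls. Samples of a group were within a narrow range, and the rise was 0.49 ± 0.08 (adjusted p = 0.0216). Both calls were lost when any 1 sample was left out, except that Ung passed without 48 hpi replicate 2 (0.0435) and Msh6 without control replicate 1 (0.0403), and adjusted p reached 0.101 and 0.100.

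Parp1, which marks strand breaks with ADP-ribose and had the highest mean of its group, read 7.87, 7.60 and 7.71 at 48 hpi, against 7.56, 7.39 and 7.42 in controls. Xrcc1, the scaffold that it recruits, read 7.08, 7.04 and 7.16 at 48 hpi, against 6.92, 6.84 and 6.89 in controls. The differences were small but free of overlap, at 0.27 ± 0.10 (adjusted p = 0.217) and 0.21 ± 0.08 (adjusted p = 0.218), and neither passed with the block (0.0922 and 0.166). A further probe set of Parp1, 1422503_s_at, had 0.52 ± 0.12 (adjusted p = 0.0632) and passed with the block (0.0299).

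**Figure D2:**
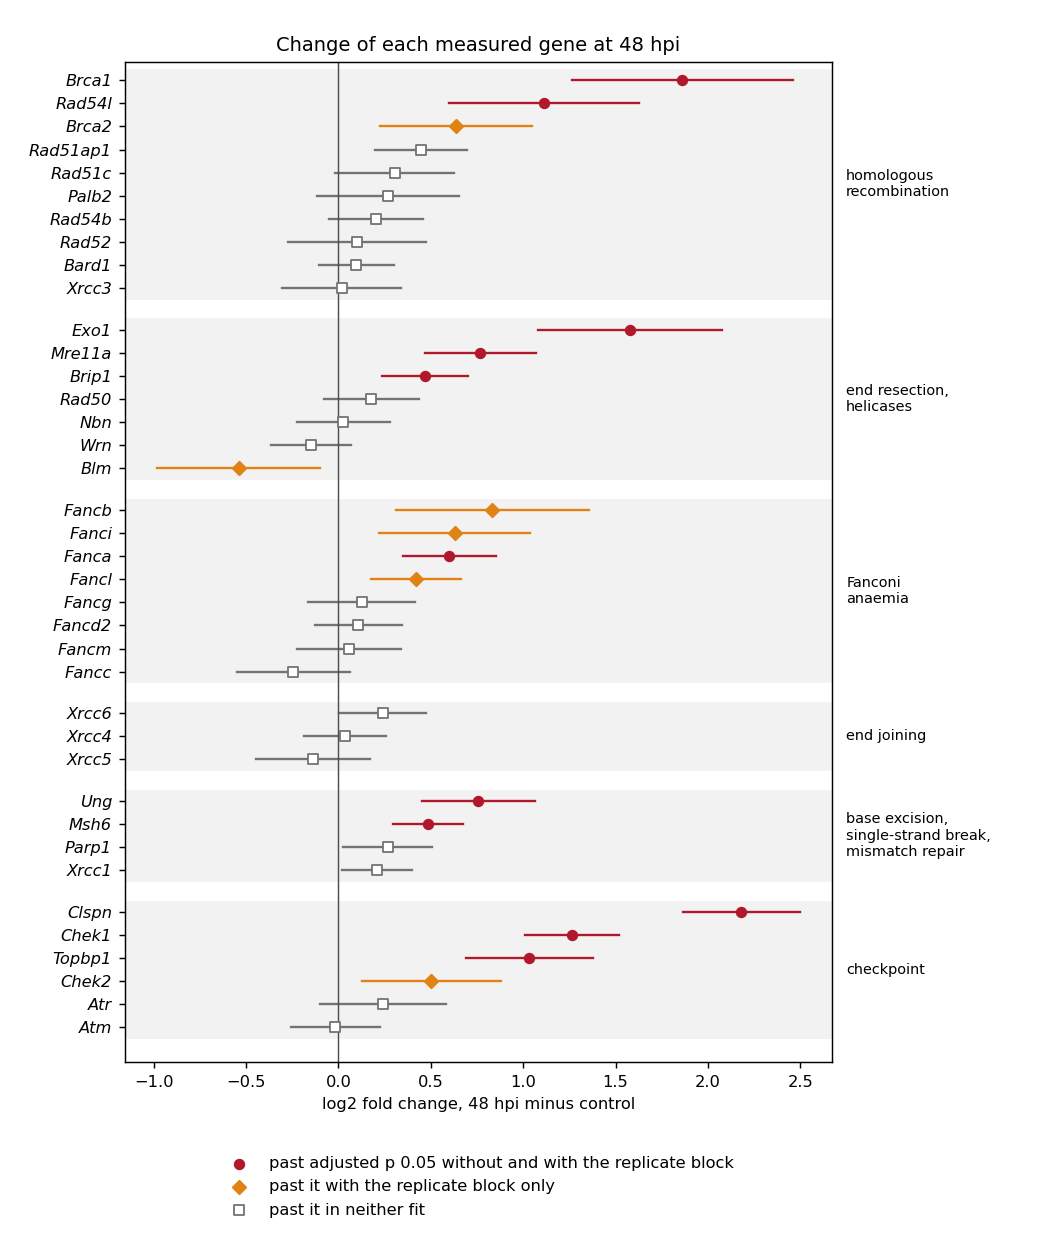
Log2 fold change at 48 hpi minus control (horizontal axis) of the 38 measured genes in role groups (vertical axis), with bars for the 95% confidence interval of the limma fit without the replicate block. Circles mark the 11 genes past adjusted p 0.05 in both fits, diamonds the 6 past it with the block only (Blm lies left of 0) and squares the 21 others. Centring the arrays on Gapdh and β-actin would move every point left by 0.67.

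Of the 38 genes 26 had more than 1 probe set, 82 probe sets in all, and for 9 of these genes at least 1 passed the threshold. In all 9, some probe sets passed and others did not. In total 16 of the 82 probe sets rose and 0 fell, 5 of the 16 being ones not used for their gene. The share over all 45037 tested probe sets is not given here, and the 4.97% above is a share of genes. Rad51ap1 was the gene where the choice mattered most, being the 1 gene whose used probe set did not pass while others did. The used one, 1417940_s_at, read 5.58, 5.57 and 5.39 at 48 hpi, against 5.02, 4.96 and 5.22 in controls. Its probe set 1417938_at read 6.36, 6.16 and 6.87 at 48 hpi, against 3.41, 3.55 and 3.47 in controls, a log2 fold change of 2.98 ± 0.18 (limma adjusted p = 0.000490). A further one, 1448899_s_at, read 6.35, 6.17 and 6.61 at 48 hpi, against 3.40, 3.71 and 4.07 in controls (2.65 ± 0.19, adjusted p = 0.000801). The fourth, 1417939_at, rose by 0.88 ± 0.16 with a mean under the 20th percentile of all probe sets. On 3 of its 4 probe sets Rad51ap1 thus rose, and on 2 of them by more than Clspn did on the probe set used for it.

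Chek1 rose on 2 of its 5 probe sets, by almost the same amount (1.26 ± 0.11 on the one used and 1.22 ± 0.10 on 1450677_at), whereas the other 3 had 0.20 to 0.27 and did not pass. Rad54l rose on 2 of 4 (1.11 on the one used and 0.82 ± 0.13 on 1423123_at). Clspn had 0.72 ± 0.16 on its second probe set, 1441984_at, which passed with the replicate block (adjusted p = 0.0342) and not without it (0.0542). For the others the rise stood on 1 probe set. The remaining 3 probe sets of Brca1 had log2 fold changes of 0.10, -0.01 and 0.06, those of Exo1 -0.08 and -0.10, that of Mre11a -0.17, that of Fanca -0.00 and that of Topbp1 0.07. Brip1, Ung and Msh6 had 1 probe set each. With the mean over all probe sets of a gene in place of 1 of them, 7 of the 38 rose, 6 of the 11 above and Rad51ap1 (1.74). Why probe sets of 1 gene differ was not tested.

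**Figure D3:**
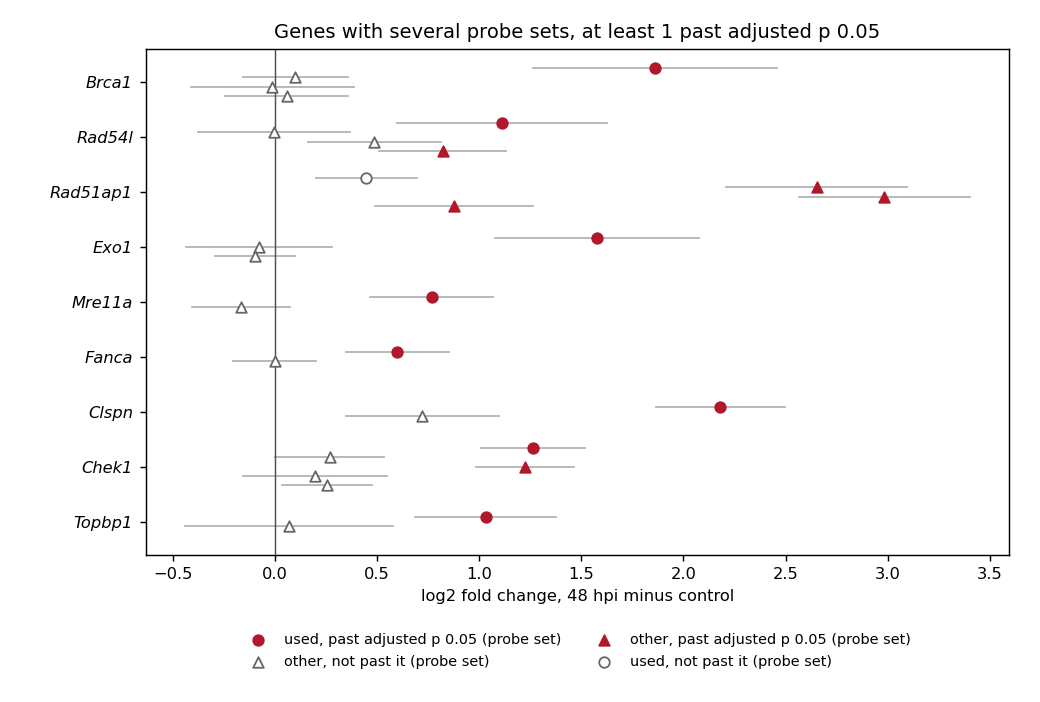
Log2 fold change at 48 hpi minus control (horizontal axis) of every probe set of the 9 genes with several probe sets of which at least 1 passed (vertical axis), with bars for 95% confidence intervals. Circles are the probe sets used, triangles the others, and filled symbols passed adjusted p 0.05. For Rad51ap1 the used probe set is at 0.45 and 2 others are at 2.65 and 2.98.

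Repair genes outside the set were read beside it. Of 86 measured genes of 7 other lists (95 listed), 10 rose and 0 fell (11.6% higher, against 4.97% over all genes). Their median log2 fold change was 0.10. In the same limma fit 23 were higher and 1 lower at an unadjusted p under 0.05 (14.6% and 9.29% over all genes). With the block 13 rose, beside 8.77% of all genes. The count of 10 was between 2 and 5 when 1 sample was left out, beside 1.92% to 3.56% higher over all genes in these fits. It was 2 without 48 hpi replicate 3, 3 without control replicate 3, 4 without 48 hpi replicate 1, and 5 without 48 hpi replicate 2, control replicate 1 or control replicate 2.

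Among other genes of homologous recombination and the Fanconi pathway 4 of 18 rose. Ube2t, the conjugating enzyme that works with Fancl, rose by 1.40 ± 0.14, the resolvase Gen1 by 1.22 ± 0.20, the nuclease subunit Eme1 by 0.81 ± 0.10 and Usp1, which takes ubiquitin off Fancd2 again, by 0.54 ± 0.11. Ube2t read 6.02, 5.50 and 5.87 at 48 hpi, against 4.43, 4.42 and 4.33 in controls. Among 17 other checkpoint genes 3 rose: Cdc25c, the phosphatase that starts mitosis, by 1.17 ± 0.16, the fork protection gene Timeless by 0.91 ± 0.15 and the histone variant gene H2afx by 0.86 ± 0.13. Tipin, the partner of Timeless, passed with the block only (0.66 ± 0.15, adjusted p = 0.0599, and 0.0254 with the block). Trp53bp1, which favors end joining over resection and had the highest mean of that list, had -0.19 ± 0.12.

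The lists of other pathways held few changes, beside 4.97% of all genes higher and 1.24% lower (8.77% and 4.64% with the block). Of 15 other base excision and single-strand break genes Mpg, an alkyl base glycosylase, rose by 0.62 ± 0.11 and Parp3 by 0.52 ± 0.09, and Apex1, the endonuclease of abasic sites, had 0.33 ± 0.11 (adjusted p = 0.147). Of 16 nucleotide excision repair genes Rad23b, a partner of the damage sensor Xpc, rose by 0.43 ± 0.09. Of 7 other end joining genes 0 rose and 0 fell with limma in either fit (1 higher and 0 lower at an unadjusted p under 0.05), with Paxx, a Ku binding factor, at -0.09 ± 0.08. Of 4 other mismatch repair genes 0 passed by any of these counts, with Pms2 at 0.12 ± 0.09. Of 9 translesion synthesis genes 0 passed without the block (2 higher and 0 lower at an unadjusted p under 0.05) and 2 rose with it, the bypass polymerase Polh (0.45 ± 0.15) and the polymerase subunit Mad2l2 (0.48 ± 0.15).

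**Figure D4:**
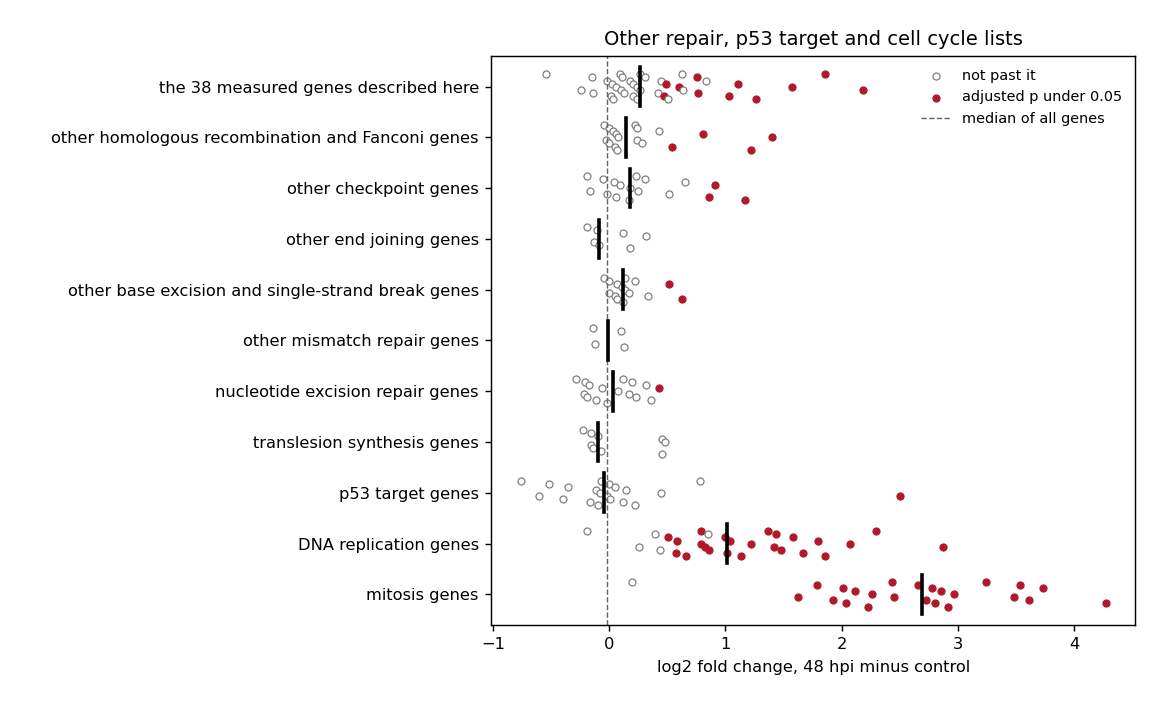
Log2 fold change at 48 hpi minus control (horizontal axis) of the measured genes of the repair, p53 target and cell cycle lists (vertical axis), 1 point per gene, with filled points past limma's adjusted p of 0.05, a bar for each such list's median and a dashed line for the median of all genes. Medians of the lists drawn run between -0.09 for translesion synthesis genes and 2.69 for mitosis genes, with 0.27 for the 38 genes, which would be -0.40 with arrays centred on Gapdh and β-actin.

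Targets of p53, which Atm, Atr and the checkpoint kinases stabilize after damage, were mostly not past the test. Of 20 measured targets 1 rose and 0 fell (1 and 2 with the block; 3 higher and 5 lower at an unadjusted p under 0.05 in limma, beside 14.6% and 9.29% of all genes), and the median was -0.05. Past the adjusted threshold, 4.97% of all genes rose and 1.24% fell (8.77% and 4.64% with the block). The 1 target that rose was Ckap2 (2.50 ± 0.11), whose protein is also a spindle protein. Cdkn1a, the cyclin-dependent kinase inhibitor and standard readout of p53, read 9.96, 10.01 and 9.73 at 48 hpi, against 10.64, 10.09 and 10.51 in controls. Every injured sample was under every control, and the log2 fold change of -0.51 ± 0.16 did not pass (adjusted p = 0.132, and 0.0677 with the block). Btg2, an antiproliferative gene and the highest mean of the list, had -0.76 ± 0.30 (0.234). Sesn1 (-0.40 ± 0.13) and Trp53inp1 (-0.60 ± 0.14) fell with the block only.

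Cell cycle genes rose at 48 hpi along with the 11 genes above. Of 29 DNA replication genes 24 rose and 0 fell (26 and 0 with the block, which added Rfc3 and Pold1; 27 higher and 0 lower at an unadjusted p under 0.05), with a median of 1.01. They included Uhrf1 (2.87 ± 0.15), Cdc6 (2.30 ± 0.24), which licenses origins, and the polymerase clamp Pcna (1.22 ± 0.16). Of 24 mitosis genes 23 rose and 0 fell (23 and 0 at an unadjusted p under 0.05), with a median of 2.69, and the block changed none of these calls. They included Birc5 (4.27 ± 0.28), Ube2c (3.74 ± 0.12) and Cdc20 (2.78 ± 0.20), which act in chromosome segregation and mitotic exit. The mean level of the 24 mitosis genes was 7.40 to 7.84 in the 48 hpi samples and 4.89 to 5.16 in controls. That of all 38 repair and checkpoint genes was 6.01 to 6.22 at 48 hpi and 5.64 to 5.68 in controls. The part of the cell cycle genes in the changes of the 38 genes was not tested.

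Markers of other cells moved between the groups as well. Of 14 monocyte and macrophage markers 10 rose and 0 fell (11 and 1 with the block), with a mean level of 8.54 to 8.85 at 48 hpi and 7.29 to 7.59 in controls. Of 10 neutrophil markers 3 rose and 0 fell (4 and 0 with the block; mean level 5.92 to 6.44 at 48 hpi and 4.81 to 5.33 in controls), and of 9 endothelial markers 3 rose and 0 fell (4 and 0 with the block; 7.45 to 7.75 at 48 hpi and 7.09 to 7.41 in controls). Cartilage markers were lower, and fibroblast markers went both ways. Of 10 chondrocyte markers 1 fell and 0 rose in the main fit and 7 fell and 0 rose with the block. All 10 were lower at 48 hpi in each of the 3 numbered pairs, as were 4961 of all 18193 genes. Their median log2 fold change was -0.58, with a mean level of 10.8 to 11.2 at 48 hpi and 11.3 to 11.6 in controls. Of 10 fibroblast markers 2 fell and 0 rose, and with the block 4 fell and 1 (Col1a1) rose (mean level 11.4 to 11.6 at 48 hpi and 11.7 to 11.9 in controls). By log2 fold change 4 of the fibroblast markers lay above 0 and 6 below, at a median of -0.16. Of 8 smooth muscle and 10 T and B cell markers 0 passed in either direction with limma in either fit, and 0 at an unadjusted p under 0.05. Of 12 airway epithelial markers 0 passed without the block (1 higher and 1 lower at an unadjusted p under 0.05), and with it Krt19 rose and Scgb1a1 fell. The fibroblast, cartilage and smooth muscle markers of the labelled tissue were thus all present, and so were epithelial ones. The mean level of the 12 epithelial markers was 6.90 to 7.92 at 48 hpi and 6.94 to 7.78 in controls, with 8 of 12 above 0 and a median log2 fold change of 0.12. The secretory gene Scgb1a1 had the lowest log2 fold change of that list and of all 18193 genes (-2.57). It read 12.31, 9.90 and 8.72 at 48 hpi, against 13.46, 12.69 and 12.50 in controls. None of the macrophage markers was under the 20th percentile level in every sample of a group. The part of these cells in the changes of the repair genes was not tested, and more cells of a type or more RNA per cell cannot be told apart in such bulk samples. Arrays correlated at 0.987 to 0.994 over probe sets within groups and at 0.974 to 0.989 between them.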

How the data were processed

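Whole tracheal mesenchyme was profiled on 6 arrays, 3 at 48 hpi and 3 controls, each of a pool of 4 mice. The authors deposited log2 expression values, made by robust multi-array analysis (RMA: background correction, quantile normalization and median polish). Per the submitters' processing notes, Affymetrix Expression Console 1.1 and Partek 6.5 were used. RMA sets the arrays to 1 distribution, so a change shared by all genes is not visible, and differences of dim probe sets may be understated. Array values hold no counts, so the number of arrays limits the precision. Nothing in the sources says how far pools were processed separately, and p-values measure the spread between these samples.

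Of 45101 probe sets 64 control probe sets were left out and 45037 were tested. The platform annotation gave 34945 probe sets 1 symbol, 932 several and 9160 none; 34741 were matched by Entrez ID to RefSeq (GRCm38.p6, for names and promoters). Groups followed the sample labels. The groups were compared with limma 3.58.1 in R 4.3.3 (lmFit and eBayes, two-sided, 4 residual degrees of freedom), with Benjamini-Hochberg adjustment over all probe sets and a threshold of 0.05. The fit was tested on simulated data. The authors' table held 0 columns of other samples.

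Samples of both groups share replicate numbers. Deviations from the group means correlated at 0.62, 0.36 and 0.34 in the 3 same-numbered pairs, so the numbers were taken to pair the samples. Only these correlations stand behind the pairing, as no label explains the numbers, and a fit with the number as a block is given beside the counts and genes whose call it changes. Every measured gene of the set was named, with its value in each sample where it passed the threshold or was the largest, smallest or highest-level gene of its role group. Of each other list the rule took the 2 largest changes past the threshold and the highest level, and Cdkn1a. Other genes named from those lists, and values in each sample of the genes that passed with the block only, were chosen after their values were seen. Alternatives were other probe set choices, dim probe sets left out (20th percentile of means, 3.67), median, quantile and Gapdh with β-actin centring, limma with trend and robust settings, an ordinary equal-variance test, and samples or numbered pairs left out. The genes and lists were chosen with earlier results of these data known. Xrcc2 and Rbbp8 are not analysed here.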

Additional observations from a re-analysis of the deposited data

How the results depend on the processing

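The count of 11 of the 38 genes higher at 48 hpi was between 4 and 9 when 1 sample was left out. Over all genes 1.92% to 3.56% were then higher, against 4.97% in the main fit. The count was 4, 3 and 2 without both samples numbered 1, 2 and 3, beside 2.27%, 1.35% and 0.726% of all genes. It was 7 with the mean over all probe sets of a gene (4.31% of all genes) and 16 with the replicate block (8.77%). With arrays centred on Gapdh and β-actin it was 3 (Clspn, Brca1 and Exo1). An ordinary equal-variance test per probe set gave 0 after adjustment (0.225% of all genes) and 18 before it (13.2%). The count was 11 to 13 with the probe set of the largest SD, without dim probe sets, with median centring, quantile normalization, trend and robust settings, or adjustment over 1 probe set per gene (4.30% to 6.81% of all genes). The count of 0 genes lower was 1 with the block (Blm) and 7 with Gapdh and β-actin centring, under which 59.3% of all genes were lower and 1.44% higher. That centring lowered the median of all genes by 0.67 and turned the median of the 38 genes to -0.40 (0.28 above the median of all genes), with Xrcc3 at -0.65, Nbn at -0.64, Brip1 at -0.20, Msh6 at -0.18 and Fanca at -0.067. Under the other settings the median of the 38 genes was 0.23 to 0.33. The replicate block changed no other call among the 38 genes than the 6 named in the text. Exo1 and Brip1 were under 3.67 in every control, so that their fold changes rest on dim control values. The causes of these shifts were not tested.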
